A study of Mus musculus with 4 samples.

Results

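Transcripts with a level above that of 0 h at 4 h, and below it at 16 h, were described in RAW264.7 cells, a mouse macrophage cell line, treated with 1 µM ODN1826, a synthetic oligonucleotide with CpG motifs. RNA was taken at 0, 4, 8 and 16 h after stimulation and hybridized with 1 dye, Cy3, to 1 Agilent array per time point. The sample labels differ in time alone, but each time point is also 1 array at its own place on the slide. No array of cells kept without ODN1826 to 4, 8 or 16 h was analysed here, so time in culture and stimulation cannot be told apart. The array carries probes for mRNAs, which have Agilent catalogue numbers, and probes named by noncoding transcripts, which were taken as lncRNA probes. A member is a probe with each of its spots well above background at 0 h, a level at 4 h over 2-fold above that at 0 h, and a level at 16 h over 2-fold below it. Level means the log2 intensity averaged over the spots of a probe minus the 75th percentile of all probes on that array, and a difference is given on the log2 scale, where 1 is 2-fold. The rule found 145 members, 64 mRNA and 81 lncRNA probes, among 70922 probes examined of 97836 on the array. Probes named by curated RefSeq noncoding accessions were left out of the rule.

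CpG DNA is taken up into endosomes and is recognized there by TLR9, which signals through MyD88 to NF-κB and the MAP kinases. Activated macrophages are known to switch on early genes whose transcripts are short-lived, followed by later waves of transcription, and many transcripts of the resting cell are lost as activation goes on. lncRNAs are transcripts without a long open reading frame, and some of them act in chromatin or RNA decay during inflammation. Gene names of the mRNA probes are not given in the files used here. The macrophage label could therefore not be checked against its marker genes, and pathway genes could not be counted among the mRNA members. In bulk RNA, fewer cells of a state and less RNA per cell cannot be told apart.

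Of the 81 lncRNA members, 34 were named by NONCODE, a database of noncoding transcripts, 33 by FANTOM full-length cDNA clones, 13 by predicted RefSeq transcripts and 1 by Ensembl. Of the 13 RefSeq names, 5 matched a gene of the RefSeq gene table by accession, and 2 of the 33 clones matched by clone name. 1 of these 2 genes is protein-coding in the table, so not all probes taken as lncRNA probes need be noncoding. Promoters are shown for 3 of these genes, Gm32643 because it was among the 12 lncRNA members ranked first by value, Gm32342 because 1 of its 2 transcripts on the array had the pattern and the other did not, and 5830432E09Rik because its single spot stayed well above background on all 4 arrays. Each holds 250 bases before the start site in lower case and 50 bases from it on in capitals, from RefSeq on GRCm38.p6. A window was chosen per gene, so its start site need not be that of the transcript measured on the array. The windows are chr8:128492936-128493235 on the minus strand (the outermost of 8 start sites in the table), chr19:37697497-37697796 on the minus strand and chr7:135652265-135652564 on the minus strand.
Gm32643: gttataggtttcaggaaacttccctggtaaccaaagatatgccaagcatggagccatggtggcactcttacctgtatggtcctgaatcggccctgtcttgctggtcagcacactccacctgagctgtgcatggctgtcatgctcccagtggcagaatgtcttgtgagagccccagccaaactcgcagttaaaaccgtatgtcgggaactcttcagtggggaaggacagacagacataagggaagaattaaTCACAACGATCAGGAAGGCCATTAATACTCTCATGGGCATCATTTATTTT
Gm32342: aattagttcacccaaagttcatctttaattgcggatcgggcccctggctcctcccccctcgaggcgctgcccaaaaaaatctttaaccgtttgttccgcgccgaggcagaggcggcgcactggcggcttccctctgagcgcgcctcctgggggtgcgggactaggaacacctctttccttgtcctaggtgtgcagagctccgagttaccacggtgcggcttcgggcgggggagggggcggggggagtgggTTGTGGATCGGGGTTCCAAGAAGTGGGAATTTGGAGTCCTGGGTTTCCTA
5830432E09Rik: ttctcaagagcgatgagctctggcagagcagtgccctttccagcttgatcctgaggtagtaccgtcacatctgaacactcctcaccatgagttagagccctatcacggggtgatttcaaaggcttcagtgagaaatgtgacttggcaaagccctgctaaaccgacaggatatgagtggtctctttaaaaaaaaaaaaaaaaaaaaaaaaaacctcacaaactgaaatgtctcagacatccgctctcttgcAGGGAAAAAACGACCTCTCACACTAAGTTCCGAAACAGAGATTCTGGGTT
Besides these 3, the promoters of Gm39268 and Gm33660 were read. None of the 5 held the NF-kB consensus, the AP-1 motif TGANTCA or the PU.1 core GAGGAA on either strand. The promoter of Gm30020, also a gene-matched lncRNA, was not read, so the 5 are not all the gene-matched lncRNAs. Among 32851 promoters of this length, 4.51% held the NF-kB consensus, 7.81% the AP-1 motif and 28.3% the PU.1 core. The absence of a match says only that these letters are not in these windows.

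The 4 h and 16 h differences chose the members and are given as a description. Among all probes examined, 4.28% were higher at 4 h by over 2-fold (4.43% of mRNA and 4.15% of lncRNA probes) and 10.9% were lower at 16 h (10.8% and 11.1%), and 0.204% met both conditions. The share was 0.209% of the mRNA probes examined and 0.201% of the lncRNA probes examined, so mRNA probes were 44.1% of the members and 43.3% of the probes examined. This balance turned with the background correction, since normexp, described with the spots, gave 0.114% of mRNA and 0.0596% of lncRNA probes, and mRNA probes were then 59.3% of the probes chosen. They were 51% where all spots had to be well above background on all 4 arrays. The opposite pattern, lower at 4 h and higher at 16 h, was met by 120 probes, 55 mRNA and 65 lncRNA. The ranges and medians at 16 h are as measured and include signals not well above background. The median at 4 h was 1.33 for mRNA members, with a range from 1.00 to 4.33, and 1.30 for lncRNA members, with a range from 1.01 to 2.95. The median at 16 h was -1.55 for mRNA members, with a range from -4.90 to -1.04, and -1.71 for lncRNA members, with a range from -3.23 to -1.0. The median fold of 4 h over 16 h, as measured and with dim 16 h values included, was 8.39 for mRNA and 8.07 for lncRNA members. Most members passed the limits by less than 4-fold, since 8 mRNA and 13 lncRNA members were over 4-fold higher at 4 h, and 16 and 21 were at values over 4-fold lower at 16 h. With signals not well above background read at their bound, 14 mRNA and 12 lncRNA members were over 4-fold lower at 16 h. Just inside the limit the smaller of both differences was 1.001, just outside it was 0.999, and 39 members had that difference within 0.1 of the limit, while 55 probes lay between 0.9 and the limit.

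**Figure D1:**
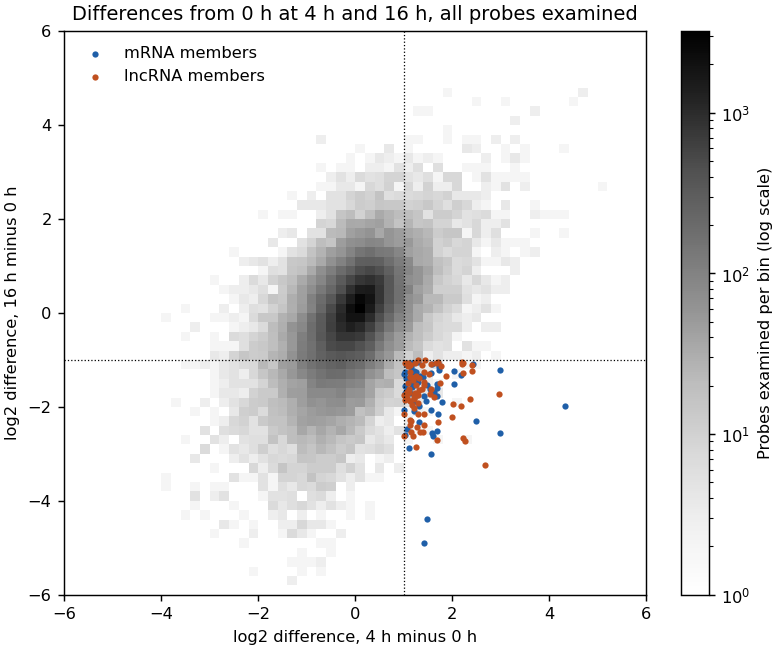
Log2 difference of 4 h from 0 h (x axis) against that of 16 h from 0 h (y axis), with all 70922 probes examined in grey bins (log colour scale) and the 145 members as points. The dotted lines are the limits of the rule, and the members fill the lower right corner, with 39 of them within 0.1 of a limit.

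The mRNA member with the largest swing, ranked by the smaller of rise and fall, was probe A_51_P300572. Over the 4 arrays from 0 h to 16 h its intensity was 350, 2644, 268 and 49.2. The 4 h array stood above the other 3 and the 16 h array below them, with a difference from 0 h of 2.99 at 4 h, which became -0.28 at 8 h and ended at -2.56. The second by measured values was A_55_P2241663, with intensities of 41.5, 220, 63.8 and 6.94 at 0, 4, 8 and 16 h. It was still above its 0 h level at 8 h, by 0.73, and neither of its spots was well above background at 16 h. Its 16 h level is therefore a bound, at least 2.60-fold below 0 h and at least 14.6-fold below 4 h, and its rank is not a measured one. The other two mRNA probes named were chosen after their values were seen. The highest difference at 4 h was 4.33 for A_55_P1959174, with intensities of 42.9, 818, 156 and 8.98. Its 16 h signal was not well above background and was at least 2.69-fold below 0 h. A_52_P170882 had the highest bound at 16 h, at least 12.3-fold below 0 h, with intensities of 196, 514, 132 and 7.78.

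Among lncRNAs the first in the same ranking by measured values was XR_877606.1, a predicted RefSeq transcript with no gene in the table. Its intensities in the order of time were 42.6, 258, 19.3 and 3.75, and at 16 h it was not well above background and at least 2.67-fold below 0 h. At 8 h it was already below 0 h, by -1.04. NONMMUT063194 had intensities of 186, 842, 110 and 23.3, each well above background, and was the first among lncRNAs measured on all 4 arrays. It was higher than 0 h by 2.26 at 4 h and later differed by -0.66 (8 h) and -2.72 (16 h). NONMMUT021736 was also measured on all 4 arrays, at 189, 720, 100 and 40.8. D030006P03, a clone with 1 spot per array, was at 137, 399, 87.7 and 33.0, and 4921510D07, also a clone with 1 spot, at 81.4, 399, 50.4 and 18.9. In these 4 lncRNAs the order of the arrays was the same, with 4 h highest, then 0 h, 8 h and 16 h.

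For the other named lncRNAs the 16 h signal did not stand well above background. NONMMUT021738 went from 30.1 to 113, then 21.6 and 5.38, with a final level at least 1.89-fold below 0 h. 9030613K11, with the largest rise among lncRNA members, went from 33.2 to 244, 25.2 and 8.30, at least 2.08-fold below 0 h. NONMMUT054290 stood apart at 8 h, where it was still above 0 h by 0.96, with intensities of 24.6, 76.3, 44.6 and 4.05 and a bound of at least 1.54-fold. NONMMUT027612 (22.7, 99.9, 6.0 and 2.99) and NONMMUT051535 (23.8, 72.7, 5.67 and 3.03) were not well above background at 8 h either, and were at least 1.42-fold and 1.49-fold below 0 h at 16 h. A430075F05 was measured close to background at 0 h, with intensities of 13.2, 57.0, 2.51 and 2.77, and no fold of 16 h under 0 h can be given for it. Its 4 h level was at least 3.77-fold above that at 16 h.

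The gene-matched lncRNAs lie beside or within genes of several functions. Gm32643 overlaps Nrp1, the neuropilin that serves as a coreceptor for semaphorins and VEGF. Its intensity was 20.02, 55.9, 26.7 and 5.43 at 0, 4, 8 and 16 h, with a difference of 0.52 at 8 h and a 16 h level not well above background, at least 1.25-fold below 0 h. Gm32342 overlaps Cyp26c1, an enzyme that degrades retinoic acid, and Exoc6, a subunit of the exocyst. The member transcript XR_877838.1 of Gm32342 was at 19.1, 83.9, 32.3 and 6.55, a difference of 2.21 at 4 h and a bound of at least 1.20-fold below 0 h at 16 h. The other transcript of Gm32342 on the array, XR_877837.1, stayed near its 0 h level, with differences of 0.14, -0.01 and -0.19. It was much brighter, with an intensity of 234 at 0 h against 19.1, so the 2 probes were not read at like signal. 5830432E09Rik, which overlaps the tyrosine phosphatase gene Ptpre and lies next to the proliferation marker gene Mki67, was at 144, 319, 114 and 35.4.

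Gm39268, which overlaps the zinc finger gene Zfp469, was at 20.5, 41.6, 12.3 and 5.19 and not well above background at 16 h. Its 2 spots were at 1.40 and 0.79 from 0 h at 4 h, and at -0.60 and -2.82 at 16 h. Neither spot alone met both limits, so Gm39268 is a member by the mean of its spots only. Gm33660, nearest to Lypd8, was at 68.4, 142, 69.1 and 22.0, and its 8 h level differed from 0 h by 0.12. Gm30020, which lies between Ctdp1, a phosphatase acting on RNA polymerase II, and Nfatc1, a transcription factor of activated lymphocytes and osteoclasts, was at 28.0, 68.8, 14.1 and 7.51. Its 16 h value rests on 1 of its 2 spots, which were at -0.04 and -3.20 from 0 h. The mRNA probes of these neighbouring genes could not be found, since the mRNA probes carry no gene names, so no neighbour can be set beside its lncRNA.

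The 8 h array was not used to choose the members, although the 0 h array it is compared with was. At 8 h the median difference from 0 h was -0.26 for mRNA members, with quartiles of -0.71 and 0.02, and -0.57 for lncRNA members, with quartiles of -1.14 and -0.02. Over all probes examined the median was 0.08 for mRNA and 0.05 for lncRNA probes. Most members were back within 2-fold of their 0 h level. Of the 145, 36 were lower and 3 higher by over 2-fold, against 7.65% and 5.08% of all probes examined. Among mRNA members 50 were within 2-fold, 11 (17.2%) were lower and 3 (4.69%) were higher, where 7.04% and 5.51% of all mRNA probes examined were lower and higher. Among lncRNA members 56 were within 2-fold, 25 (30.9%) were lower by value and none of 81 was higher, where 8.11% and 4.75% of all lncRNA probes examined were lower and higher. Of the 25 lncRNA members, 6 had no spot well above background at 8 h and a bound at or under 2-fold, and without them 19 (23.5%) were lower. None of the 11 mRNA members was in that position. Without regard to size, 46 of 64 mRNA and 61 of 81 lncRNA members were below 0 h, or 71.9% and 75.3%, against 42.8% and 45.9% of all probes examined. The lower 8 h median of lncRNA than of mRNA members is a difference between probes on single arrays, and it was not tested. It went with the number of spots. All 64 mRNA members had 2 spots per array, while 31 lncRNA members had 1. The 8 h median was -0.67 for these 31 and -0.29 for the 50 lncRNA members with 2 spots. Among members with 2 spots the medians of both classes were thus close, at -0.29 and -0.26. At 8 h, 35 of 64 mRNA and 48 of 81 lncRNA members differed from 0 h by over 1.96 times the error of the scanner software. The same count over all probes examined was not made, so these counts do not set the members apart.

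**Figure D2:**
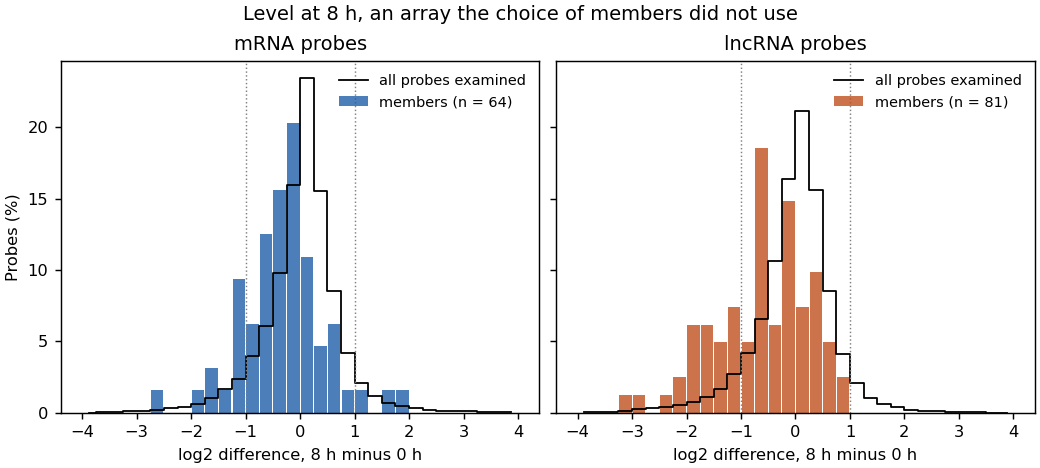
Share of probes (y axis, %) by the log2 difference of 8 h from 0 h (x axis), for the 64 mRNA and 81 lncRNA members (bars) and all probes examined of the class (line). The dotted lines mark 2-fold, the members lie to the left of all probes in both classes, and no lncRNA member lies beyond 2-fold on the right.

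Probes that were higher at 4 h, whatever their 16 h level, had a median 8 h difference of 1.16 for 1360 mRNA and 0.87 for 1672 lncRNA probes. Probes that were lower at 16 h, whatever their 4 h level, had a median of -1.0 for 3300 mRNA and -1.07 for 4450 lncRNA probes. The members lay between these sets at 8 h, of which they are a part. In the opposite pattern the 8 h median was 0.55 for the 55 mRNA and 0.24 for the 65 lncRNA probes.

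The decline from 4 h was also read on the 8 h array. The 8 h level was below the 4 h level in 145 of 145 members, and by over 2-fold in 135 of them, against 4.46% of all probes examined. These were 60 mRNA and 75 lncRNA members, where 3.99% of all mRNA and 4.82% of all lncRNA probes examined were lower by as much. A further decline from 8 h to 16 h was found in 137 members. It exceeded 2-fold in 90 of them, against 3.90% of all probes examined, namely in 41 mRNA and 49 lncRNA members, where 4.18% and 3.69% of the probes examined were lower by as much. Because the rule places 4 h high and 16 h low, an 8 h level between them is partly fixed by the choice of members. Both falls reuse the values that chose the members, so their excess over all probes examined is partly fixed as well. By 8 h the median member had passed 56.9% of its log2 fall from 4 h to 16 h among mRNA and 63.7% among lncRNA probes, with quartiles of 40.8% and 69.9% and of 49.6% and 78.4%. More than 50% of the fall was passed by 8 h in 39 of 64 mRNA and 60 of 81 lncRNA members. In 8 members, 1 mRNA and 7 lncRNA, the 8 h value was at or below the 16 h value. Of the 7, 3 were not well above background at either time and have no order, and 2 were well above it at both, as was the mRNA member.

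**Figure D3:**
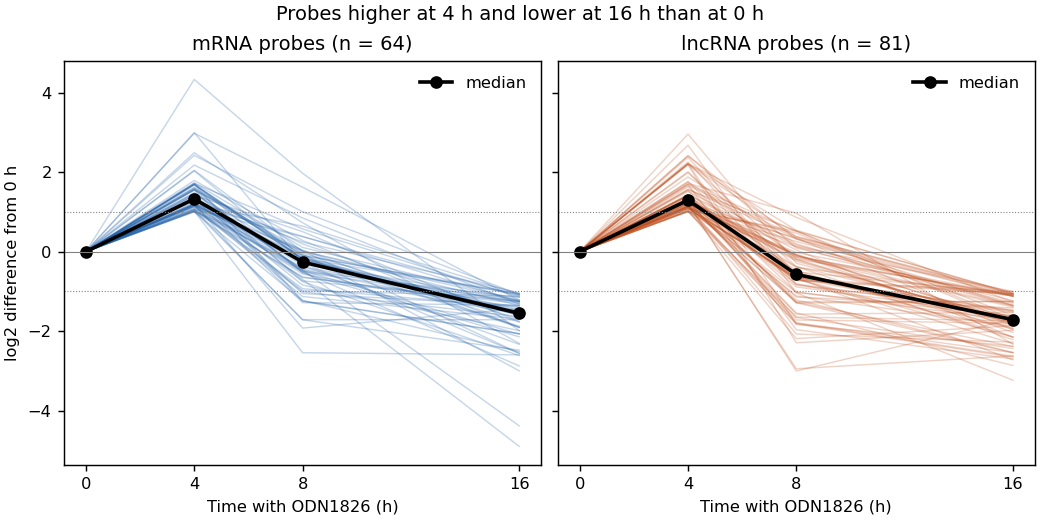
Log2 difference from 0 h (y axis) over time with ODN1826 (x axis, h), with a thin line for each of the 64 mRNA and 81 lncRNA members and their median in black. The dotted lines mark 2-fold, and the median passes from 1.33 to -0.26 and -1.55 in mRNA and from 1.30 to -0.57 and -1.71 in lncRNA members.

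Signal strength differed between both classes. In the order of time, the median intensity of mRNA members was 359, 1020, 308 and 95.8, and that of lncRNA members was 117, 319, 83.5 and 30.9. All probes examined had a median of 570 for mRNA and 143 for lncRNA at 0 h, so members of both classes were somewhat dimmer than their class. Each member was well above background with all spots at 4 h. At 8 h, 7 lncRNA members and no mRNA member had no spot well above background. At 16 h this held for 9 of 64 mRNA and 29 of 81 lncRNA members, and these have only a bound. The bound kept the 16 h level over 2-fold below 0 h in 5 of the 9 mRNA and 13 of the 29 lncRNA members, and left it at or under 2-fold in 4 and 16. The lowest signal called well above background on the 16 h array was an intensity of 13.2.

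Within bins of the 0 h intensity the share of members did not run the same way in both classes. Under a log2 intensity of 5, 0.184% of mRNA probes (4 members) and 0.301% of lncRNA probes (17 members) had the pattern. Between 5 and 7 the shares were 0.242% (14) and 0.188% (25), between 7 and 9 they were 0.236% (16) and 0.208% (26), and at 9 and over 0.188% (30) and 0.147% (13). The share was thus higher in lncRNA than in mRNA probes in the dimmest bin and lower in the other 3. In that bin 16 of the 17 lncRNA members and all 4 mRNA members had a 16 h signal not well above background. The median 8 h difference was lower for lncRNA than for mRNA members in 3 of the 4 bins, with -0.82 against -0.47 at 9 and over, -0.66 against -0.17 between 7 and 9, and -0.64 against 0.01 under 5. Between 5 and 7 it was the other way, with -0.12 for lncRNA and -0.25 for mRNA members. The bin under 5 holds only 4 mRNA members. These medians include 8 h values not well above background as measured, and the number of spots per probe was not held equal. Whether signal strength accounts for the gap between classes was not tested.

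**Figure D4:**
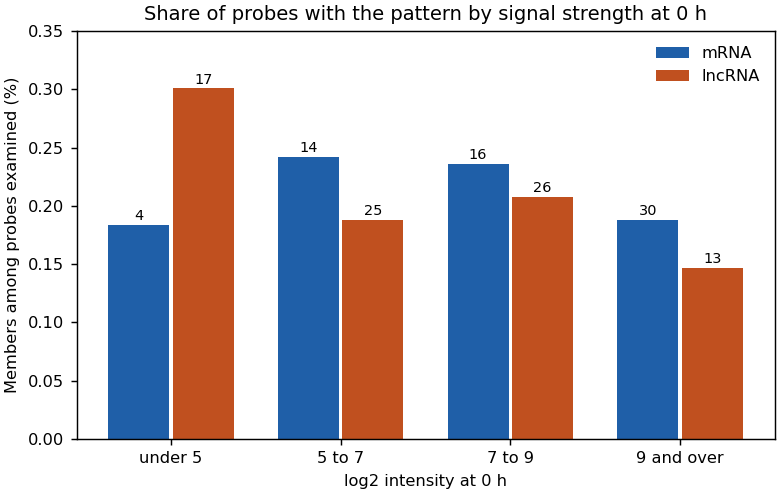
Members as a share of the probes examined (y axis, %) in 4 bins of log2 intensity at 0 h (x axis), with the number of members above each bar. The lncRNA bar is the higher one under 5 (0.301%, 17 members) and the lower one in the other bins.

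The share of members was also counted by the source of the lncRNA names. Clones had the pattern in 0.284% of 11600 probes examined, predicted RefSeq transcripts in 0.176% of 7401 and NONCODE transcripts in 0.166% of 20440. Of the 33 clone members 25 had 1 spot per array. The median 8 h difference was -0.68 for clone members, -0.44 for NONCODE members and -0.21 for RefSeq members. Of the lncRNA probes examined, those with 1 spot were members in 0.218% and those with 2 spots in 0.192%. The median 8 h difference of these members was -0.67 with 1 spot and -0.29 with 2 spots.

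Some NONCODE members had neighbouring numbers. In 6 runs, members lay within 4 numbers of each other, and these runs held 13 of the 34 NONCODE members. The files hold neither sequences nor positions of these probes, so whether they share a transcript or sequence is not known, and members of a run may not be separate measurements. Both NONMMUT022750 and NONMMUT022751 were higher by 2.41 at 4 h. NONMMUT022750 went from 208 to 1052, 206 and 73.4, and NONMMUT022751 from 1360 to 6855, 1570 and 519. At 8 h they differed from 0 h by 0.09 and 0.31. Also numbered nearby, the probes NONMMUT022748 and NONMMUT022753, were higher by 2.84 and 2.32 at 4 h. Their 16 h intensities of 9.50 and 8.44 lay below the lowest signal called well above background on that array.

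NONMMUT021736 and NONMMUT021738 differed from 0 h by 2.01 and 1.99 (4 h) and by -0.81 and -0.38 (8 h). At 16 h NONMMUT021736 was at -1.94, and NONMMUT021738 has the bound given above. The run of 3, NONMMUT041254, NONMMUT041255 and NONMMUT041258, had differences of 1.31, 1.15 and 1.70 (4 h), of -0.15, -0.09 and 0.52 (8 h) and of -1.39, -1.37 and -1.05 (16 h). A probe between them in number, NONMMUT041256, was higher at 4 h by 1.65 and was at -0.17 at 16 h, so a neighbouring number did not always go with the pattern. Within a run the 8 h differences spanned from 0.09 to 0.67. Of 40 examined probes within 2 numbers of a NONCODE member, 12 (30.0%) were members themselves, against 0.166% of all NONCODE probes examined. The other 28 included 5 that were higher at 4 h and 3 that were lower at 16 h, 1 of them at a signal below that limit.

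**Figure D5:**
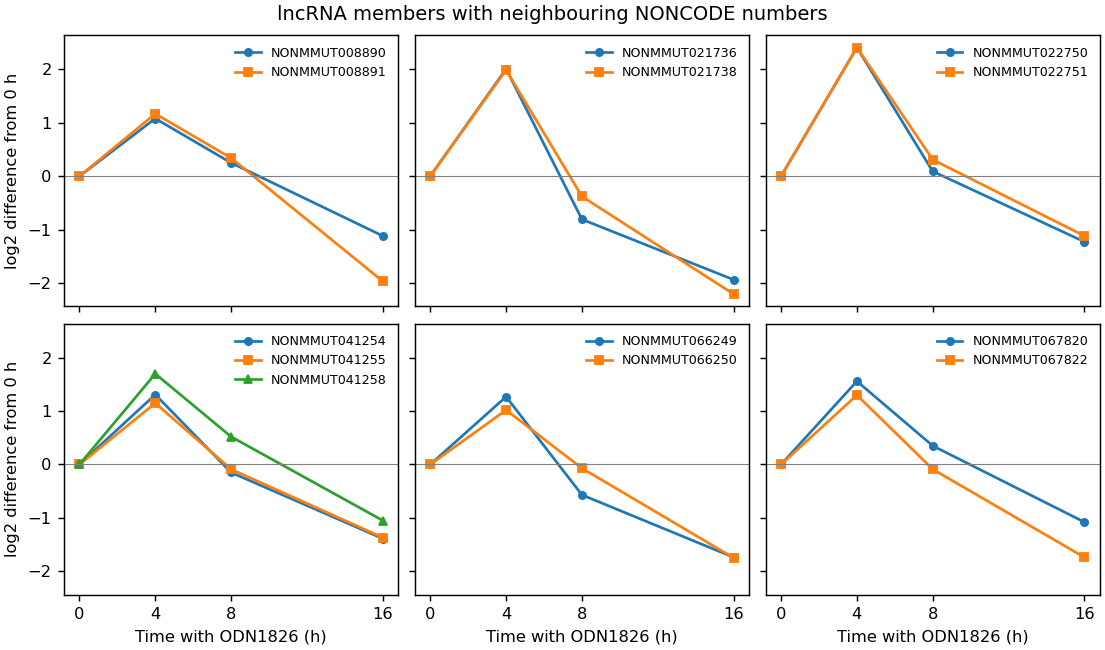
Log2 difference from 0 h (y axis) over time with ODN1826 (x axis, h) for the 6 runs of NONCODE members with neighbouring numbers, 1 panel per run and 1 line per probe. The lines of a run lie within 0.55 of each other at 4 h, within 0.67 at 8 h and within 0.85 at 16 h, with dim 16 h values as measured.

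Repeat spots on an array give the only measure of error beside the scanner's own, and they leave out differences between cultures, RNA preparations and arrays. The members were chosen on the mean of their spots, so agreement in direction is nearly fixed. Each spot alone passed both limits in 53 of 64 mRNA members (82.8%) and 35 of 50 lncRNA members with 2 spots (70.0%), and 31 lncRNA members had 1 spot. When the rule was applied to the first spot of 56247 probes with 2 spots it chose 117 probes, and on the second spot 127, of which 88 were chosen by both. Thus 72.1% of the choices made on 1 spot were also made on the other. The spots of the members were spread over the array, with 23.2% to 26.6% in each quadrant. With normexp background correction, which models the local background and adds an offset of 50, in place of the scanner's own correction, 34 mRNA and 23 lncRNA members still met the rule. Their median intensity at 0 h was 1284 and 399, against 97.5 and 52.7 for those that did not, and of the 42 lncRNA members with a log2 intensity under 7 at 0 h none met it. Of the 14 probes ranked highest by the smaller of rise and fall, A_51_P300572, NONMMUT063194 and NONMMUT021736 met it with normexp, as did 4 of the 13 members of the runs. For the other gene-matched members and extremes named, the result with normexp is not given singly.

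All 4 arrays shared 1 slide and a single scan, and neither differs between time points, while place on the slide and time point cannot be told apart. The 75th percentile lay at intensities from 440 (16 h) to 531 (0 h), and probes with all spots well above background made up 70.9% to 73.3% of each array. Because a time point has 1 array, no difference between samples could be tested, and how precise any of them is depends on this number.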

How the data were processed

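lncRNAs and mRNAs were measured on 4 one-colour arrays. The scanner intensity values that the authors deposited come from Agilent Feature Extraction, which corrects the background within each array. The file headers give version 11.5.1.1 and the submitters' processing notes 10.7. The authors also deposited log2 values normalized in GeneSpring, which equal the probe means used here before scaling, less an array constant of 9.05, 8.98, 8.95 or 8.78, and which were used as an alternative.

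Control spots were left out, as were spots marked as outliers (79 to 420 per array) unless all spots of a probe were marked. Log2 intensities were averaged per probe and the 75th percentile was subtracted. No spot was saturated. A 16 h level not well above background was replaced, for a bound, by the higher of the lowest level well above background and its own. That lowest level is the smallest called on the array. The words "at least" therefore hold against it and are not a guaranteed limit. With 1 array per time point no test was run. The members and lists were chosen with earlier results of these data known. Named probes were the highest by the smaller of rise and fall, 2 mRNA and 12 lncRNA probes, as well as gene-matched members and the extremes, which were chosen after their values were seen. Lists of macrophage markers and pathway genes could not be used, since mRNA probes carry no gene names. Normexp was run on the median spot signal, with an offset of 50. The other alternatives were quantile normalization, the percentile over detected probes, outliers kept, 4 filters on dim probes, the authors' values, a log2 limit of 1.5 and curated noncoding probes kept. The header names mm9 as build and the gene table is GRCm38.p6, so it was used for names and neighbours, and promoters carry its coordinates. The values of 1 clone-matched gene are not reported here. The procedure was tested on simulated data. The tools were limma 3.58.1 in R 4.3.3, and pandas 2.3.3, numpy 2.4.6 and, for plots, matplotlib 3.10.9 in Python 3.11.15.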

Additional observations from a re-analysis of the deposited data

Results flagged for a closer look

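The members are by their choice probes whose difference from 0 h was upward at 4 h and downward at 16 h, in 64 mRNA and 81 lncRNA probes. Each time point has 1 array, so whether both differences are unlike was not tested.

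Among the probes named by curated RefSeq noncoding accessions, which the rule leaves out, 1 had the pattern. It was NR_030692.1 of A930011G23Rik, with 1 spot and intensities of 19.1, 41.2, 29.5 and 6.11 at 0, 4, 8 and 16 h, and it was not well above background at 16 h. Its differences from 0 h were 1.18, 0.73 and -1.37.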

How the results depend on the processing

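No paired analysis was possible because each time point has 1 array. With normexp the rule found 35 mRNA and 24 lncRNA probes, 57 of them among the 145 members, and 39 probes chosen by both spots of a pair; the offset of 50 shrinks the log2 differences of dim probes by its construction. With all spots well above background on all 4 arrays it found 52 mRNA and 50 lncRNA probes, and the mRNA median at 8 h was -0.37. With a log2 limit of 1.5 it found 16 mRNA and 13 lncRNA probes, 16 by both spots, and the mRNA median at 8 h was -0.14. The lncRNA median at 8 h moved by less than the spread between spots in each alternative. Counts stayed within 1.5 times in the other alternatives, with 133 to 145 of the members kept, and 176 probes without a filter on dim probes. The authors' values had array constants that match the 75th percentiles used here, so that alternative repeats the main one. The filter at 0 h and 4 h could lose no member either, since all 145 were well above background at 4 h. Of the 4 h and 16 h differences of the 14 ranked probes, 28 values, none changed sign, and all 28 moved by more than their spot or scanner error with normexp, as did 2 with the percentile over detected probes and 2 with quantile normalization. Depth of signal limits the 38 members not well above background at 16 h.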
